A study of Mus musculus with 16 samples.

Results

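The 53 protein-coding keratin genes of the mouse were followed through 16 targeted RNA sequencing libraries. The members were all protein-coding GENCODE M21 genes whose symbol is Krt followed by a digit, 53 of 40400 genes to which an assembled transcript was assigned, and they held 86 of 137562 transcripts. RNA from 8 tissues of adult C57BL/6J mice was depleted of ribosomal RNA, mixed with ERCC spike-in controls, made into strand-specific libraries and captured with a pair of oligonucleotide probe designs, one over long noncoding RNA loci (lncRNA design) and one over annotated splice junctions (splice junction design). There was 1 library per tissue and design. The brain tissues were Brain, Cerebellum, Cortex and OlfactoryBulb, of which the last 3 are regions of the first organ, while Heart, Kidney, Liver and Testes made up the nonbrain group. RNA of each nonbrain organ came from 2 pieces pooled from the same mouse. The labels name no treatment and no altered allele. Brain and nonbrain samples were extracted with different reagents and each set of 4 libraries was hybridized as its own pool, so tissue group, extraction and pool cannot be told apart.

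Keratins are the intermediate filament proteins of epithelial cells, and a filament forms only from a type I chain paired with a type II chain. Basal cells of stratified epithelia make Krt5 with Krt14 and often Krt15, cells that leave the basal layer switch to Krt1 with Krt10, wounded or rapidly renewing epidermis makes Krt6 with Krt16 and Krt17, and single-layered epithelia of liver, kidney tubules and gut make Krt8 with Krt18, joined in ducts by Krt7 and Krt19. Other keratins build the layers of the hair, among them the inner root sheath that moulds the growing shaft and the hard keratins of the shaft itself, while Krt4 and Krt13 belong to the lining of mouth and oesophagus and Krt12 to the cornea.

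The genes lay in a pair of clusters. In GRCm38, 27 type I genes occupied chr11:99232761-100269871 and 25 type II genes chr15:101347444-102004482, and Krt18, the remaining type I gene, sat beside the type II cluster at chr15:102028180-102032027. Promoter sequence of 34 members with a RefSeq start (GRCm38.p6) within 100 bases of a GENCODE coding transcript's start was searched over the 200 bases before the start, on both strands, for the TATA box core (TATAAA), a GC box (GGGCGG), an AP-2 motif (GCCNNNGGC) and an AP-1 motif (TGANTCA). The TATA box core was present in 15 of these 34 genes, against 9.96% of all 32851 RefSeq promoters. By class it stood in 6 of 7 inner root sheath genes, 5 of 9 hair shaft genes, 2 of 4 mucosal and corneal genes, 1 of 7 epidermal genes, 1 of 4 simple epithelial genes and neither of the 2 activation genes. Median GC content of the windows was 43.5% for inner root sheath genes, 54.5% for epidermal genes and 57.25% for simple epithelial genes, beside 53% over all promoters. The GC box was found in 2 of 34 keratin genes and 31% of all promoters, AP-2 in 5 of 34 and 11.8%, and AP-1 in 1 of 34 and 5.48%. A match is a description of letters only.

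Promoters of 6 genes whose levels separate the tissues are printed because they show these contrasts, each with a motif in capitals where one of the 4 searched was found. Krt5 (chr15:101712906-101713105 on the minus strand) and Krt79 (chr15:101940325-101940524 on the minus strand) are epidermal and held none of the 4. Krt18 (chr15:102028016-102028215 on the plus strand) has its AP-2 match in capitals, and Krt7 (chr15:101412203-101412402 on the plus strand) its 4 GC boxes and 2 AP-2 matches, of which a pair overlap. Krt25 (chr11:99322952-99323151 on the minus strand) of the inner root sheath and Krt12 (chr11:99422260-99422459 on the minus strand) of the cornea each have the TATA box core in capitals.
Krt5: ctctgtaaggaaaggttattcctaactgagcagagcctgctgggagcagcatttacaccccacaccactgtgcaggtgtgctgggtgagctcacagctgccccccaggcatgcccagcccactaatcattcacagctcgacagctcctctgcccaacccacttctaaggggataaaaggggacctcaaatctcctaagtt
Krt79: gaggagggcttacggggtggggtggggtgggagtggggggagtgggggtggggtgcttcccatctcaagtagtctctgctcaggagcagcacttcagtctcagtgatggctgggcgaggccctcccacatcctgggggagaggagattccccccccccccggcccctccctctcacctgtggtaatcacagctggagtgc
Krt18: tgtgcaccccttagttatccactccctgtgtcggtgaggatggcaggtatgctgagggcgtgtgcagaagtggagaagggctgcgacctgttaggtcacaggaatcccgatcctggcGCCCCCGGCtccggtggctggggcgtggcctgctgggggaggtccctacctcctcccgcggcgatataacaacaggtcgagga
Krt7: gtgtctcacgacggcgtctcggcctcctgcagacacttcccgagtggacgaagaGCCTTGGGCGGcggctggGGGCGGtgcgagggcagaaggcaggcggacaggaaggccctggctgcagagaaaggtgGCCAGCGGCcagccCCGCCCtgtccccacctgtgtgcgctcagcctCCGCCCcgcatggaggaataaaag
Krt25: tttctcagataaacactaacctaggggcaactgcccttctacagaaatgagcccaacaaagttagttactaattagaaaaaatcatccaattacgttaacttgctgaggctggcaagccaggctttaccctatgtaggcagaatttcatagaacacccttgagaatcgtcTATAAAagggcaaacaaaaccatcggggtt
Krt12: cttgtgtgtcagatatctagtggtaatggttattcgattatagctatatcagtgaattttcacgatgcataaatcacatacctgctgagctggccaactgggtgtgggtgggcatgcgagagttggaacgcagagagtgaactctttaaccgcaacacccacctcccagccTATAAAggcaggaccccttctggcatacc

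Near-identical stretches limit what short fragments can resolve among keratins. Over coding sequence, Krt6a and Krt6b shared an identical run of 280 bases (chr15:101693936-101694215 in Krt6a), and 30.1% of the windows of 1 read length in Krt6a recur in another gene. Krt5 and Krt6a shared 140 bases over exons 1 and 2 of Krt5. Krt14 and Krt16 shared 134 bases in exon 1 (chr11:100207017-100207150 in Krt14, on the minus strand), their longest identical run. Fragments of this basal and this wound-associated keratin that lie wholly within it cannot be separated. It is printed here from the GRCm38 reference.
Krt14 and Krt16: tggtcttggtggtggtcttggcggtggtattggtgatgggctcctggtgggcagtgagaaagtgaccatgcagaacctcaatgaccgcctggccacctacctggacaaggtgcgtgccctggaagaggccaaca
The same share of windows was 2.54% for Krt14, 2.19% for Krt5, 23.9% for Krt16 and 24.5% for Krt81. Of the 350 shared windows of Krt16, 308 recur in Gm11597 and 42 in Krt14. The low values of Krt6b beside abundant Krt6a, and of Krt16 beside Gm11597 and abundant Krt14, are therefore uncertain. Hair shaft genes shared windows mainly with each other, and Krt32 and Krt84 shared none.

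Values are deposited normalized fragment numbers summed over the transcripts of a gene, and they grow with transcript length, so where keratins are ranked against each other the value is divided by the assembled length in kilobases. Libraries held 8930235 to 43889288 fragments including 7.81% to 45.6% spike-in fragments. The value of 1 fragment was 0.289 to 1.60 in the splice junction libraries and 1.14 to 4.77 in the lncRNA libraries, and counting intervals cover counting error only. The 2 libraries labelled Testes went against their label. In the splice junction design none of 5 germ cell genes that reached a value of 10 was highest there, 10 of 16 germ cell genes were at 0, and the 16 summed to 42.1 against 471 in OlfactoryBulb. Of 7 Leydig and Sertoli cell genes that reached 10, 1 was highest there, as were 4 of 9 skeletal muscle genes, beside 16.4% of all protein-coding genes. The Leydig and Sertoli share was near that of all genes. The skeletal muscle genes summed to 1545 there and 133404 in Heart. Their part in the keratin results was not tested. They are called the libraries labelled Testes throughout. In bulk RNA, fewer cells of a type and less RNA per cell cannot be told apart.

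The keratin share of fragments was highest in the libraries labelled Testes. In the splice junction design 443959 of 26364315 fragments outside the spike-ins fell on keratin genes, 1.68% (95% Wilson interval 1.68% to 1.69%), and the share was 0.0108% to 0.108% in the other 7 tissues. In the lncRNA design it was 0.497% (95% Wilson interval 0.493% to 0.5002%), with 0.00219% to 0.0385% in the other tissues. Of 53 members, 48 had at least 1 fragment in a splice junction library, 33 reached a value of 10 in at least 1, and 15 of these 33 were highest in the library labelled Testes, beside 16.4% of all 15937 protein-coding genes that reached 10. At 4-fold or more above the highest of the other 7 tissues, on the scale of the value plus 1, there were 13 of 33 keratins against 3.82% of protein-coding genes. Krt16, Krt32, Krt42, Krt75, Krt78 and Krt87 reached 10 in no other library and so had to be highest there, as did Krt23 in the lncRNA design, and the shares over all genes were taken under the same filter. The lncRNA design gave 10 of 16 highest there, beside 14.2%, and the same 10 at 4-fold or more, beside 2.76% of 14146 genes. With 1 library per tissue and design these counts have no replicate error and no test was made, and both captures of a tissue start from the same RNA. Krt33b, Krt34, Krt81, Krt82 and Krt88 were at 0 in all splice junction libraries, where a count of 0 allows up to 3 fragments in each.

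**Figure D1:**
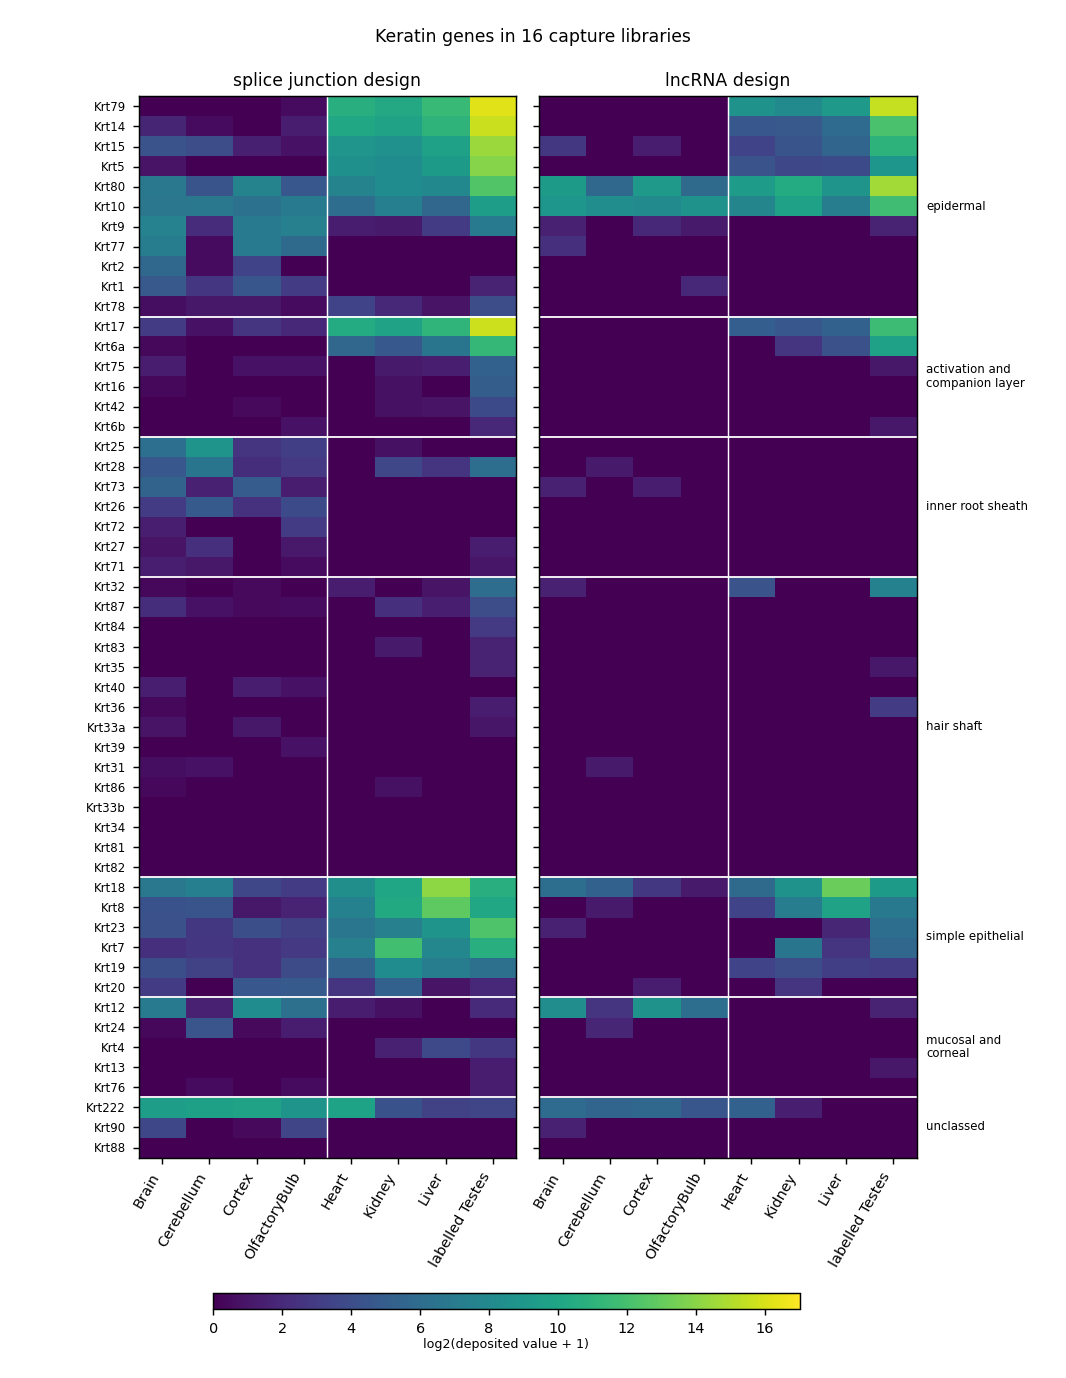
Colour gives log2 of the deposited value plus 1 for the 53 keratin genes (vertical, grouped by class) in the 8 tissues (horizontal) of the splice junction design (left) and the lncRNA design (right), and the white vertical line separates brain from nonbrain tissues. Of the epidermal and activation keratins that reach 10, all but Krt1, Krt2, Krt9 and Krt77 are brightest in the column labelled Testes on the left, with Krt79 at 76086 in the splice junction design, Krt18 and Krt8 are brightest in Liver, and Krt25 reaches 436 in Cerebellum.

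The classes divided the tissues. In the library labelled Testes, epidermal keratins took 72.2% of keratin fragments of the splice junction design and activation keratins 23.6%, with 4.07% for simple epithelial, 0.0403% for hair shaft and 0.0304% for inner root sheath keratins. In Liver 73.5% and in Kidney 61.0% belonged to simple epithelial keratins, and in Heart 54.7% were epidermal. The Heart share rests largely on fragments in proportion to the library labelled Testes, without which Krt14 falls from 1182 to 169 and Krt79 from 1594 to 98.3 in Heart. In Cerebellum inner root sheath keratins took 31.8% and epidermal keratins 8.98%, of a total of 4635 keratin fragments. Summed values of epidermal keratins were 170956 in the library labelled Testes, 6900.3 in Liver, 3887 in Heart, 3263 in Kidney and 159 in Cerebellum. By lncRNA capture the composition differed in some tissues. Kidney was then 78.8% epidermal and 20.3% simple epithelial, and Cerebellum 79.8% epidermal and 0.276% inner root sheath. Liver stayed mostly simple epithelial, at 87.9%.

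**Figure D2:**
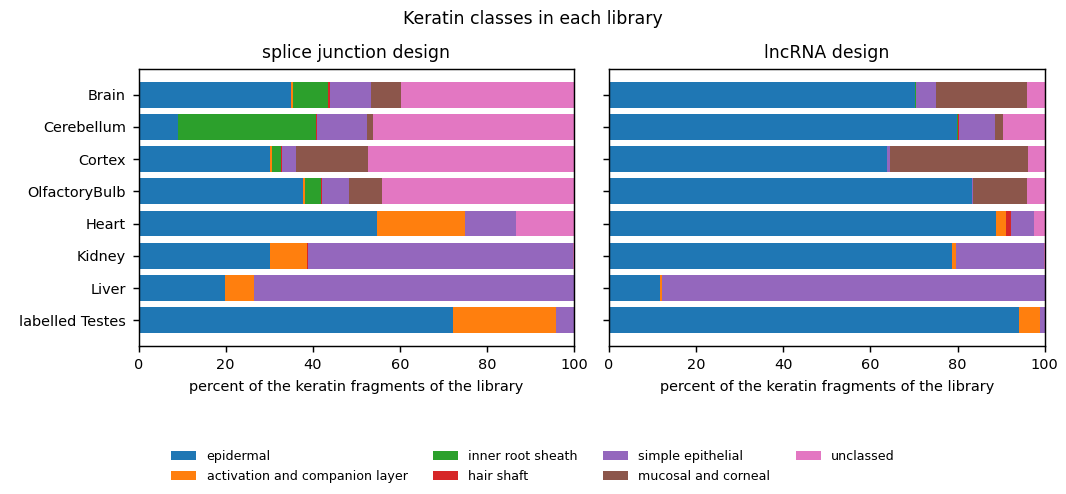
Bars give the percent of each library's keratin fragments (horizontal, 0 to 100) that belong to each of 7 classes, for the 8 tissues of the splice junction design (left) and the lncRNA design (right). Epidermal keratins fill 72.2% of the bar labelled Testes on the left and 94.2% on the right, and simple epithelial keratins fill 73.5% and 87.9% of the Liver bars. In Kidney simple epithelial keratins fill 61.0% of the bar on the left and 20.3% on the right.

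Basal layer keratins were far higher in the library labelled Testes than in any other. Krt14, the type I keratin of basal keratinocytes (chr11:100203162-100207548), measured 51523 there, 1182 in Heart, 872 in Kidney and 2155 in Liver, and 2.31 in Brain, 0.383 in Cerebellum, 0 in Cortex and 1.62 in OlfactoryBulb in the splice junction design. Its type II partner Krt5 (chr15:101707070-101712898) measured 15282 in the library labelled Testes, 369 in Heart, 310.2 in Kidney and 606 in Liver, and 0.868 in Brain, 0 in Cerebellum, 0 in Cortex and 0 in OlfactoryBulb. Krt15, a basal and hair bulge keratin, measured 21874 there, 472 in Heart, 387 in Kidney and 835 in Liver, and 19.1 in Brain, 15.0 in Cerebellum, 1.86 in Cortex and 0.810 in OlfactoryBulb. For each of the 3 genes all nonbrain tissues exceeded all brain tissues and the library labelled Testes stood apart from the other nonbrain tissues, by 23.9-fold, 25.2-fold and 26.2-fold above Liver. The lncRNA design gave 4489 for Krt14, 487 for Krt5 and 2069.5 for Krt15 in the library labelled Testes, 71.5, 24.3 and 43.8-fold above the next tissue.

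Krt79 joined the basal keratins. This type II keratin of the hair follicle opening and sebaceous duct (chr15:101929332-101940324) measured 76086 in the library labelled Testes, 1594 in Heart, 1223 in Kidney and 3001 in Liver, and 0 in Brain, 0 in Cerebellum, 0 in Cortex and 0.405 in OlfactoryBulb, where the OlfactoryBulb value is 1 fragment. In the lncRNA design it measured 47568, with 410.2 in Heart, 275 in Kidney and 564 in Liver and 0 in the 4 brain tissues. The distance to the next tissue was 25.3-fold in the splice junction design and 84.3-fold in the lncRNA design. Per kilobase Krt17 (42328) and Krt79 (38953) were the most abundant keratins of the library labelled Testes in the splice junction design, followed by Krt14 (38939), Krt15 (16184) and Krt5 (6978).

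Suprabasal keratins did not move as one block. Krt10, the type I keratin of cells above the basal layer (chr11:99385254-99389364), measured 708 in the library labelled Testes, 67.4 in Heart, 159 in Kidney and 47.0 in Liver, and 107 in Brain, 113 in Cerebellum, 84.8 in Cortex and 133 in OlfactoryBulb. The brain and the other nonbrain tissues overlapped, and the library labelled Testes was 4.43-fold above Kidney. Krt1, the usual partner of Krt10, measured 2.13 in the library labelled Testes, 0 in Heart, Kidney and Liver, and 25.8 in Brain, 5.37 in Cerebellum, 22.3 in Cortex and 7.29 in OlfactoryBulb. Krt2, of late epidermal differentiation, measured 50.9 in Brain, 0.383 in Cerebellum, 9.67 in Cortex and 0 in OlfactoryBulb and was 0 in all nonbrain tissues. Krt1 and Krt2 were thus highest in Brain, unlike Krt10. Krt80, a type II keratin of differentiating epithelia, measured 5336 in the library labelled Testes, 191 in Heart, 307 in Kidney and 248.8 in Liver, and 111 in Brain, 20.7 in Cerebellum, 194 in Cortex and 23.9 in OlfactoryBulb. The library labelled Testes was 17.3-fold above Kidney for Krt80. Krt78 stayed low, at 14.9 in the library labelled Testes, 9.62 in Heart and 0.405 to 1.15 over the brain tissues.

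Krt9 and Krt77 set brain tissues apart from most organs. Krt9, the keratin of palm and sole skin, measured 188 in Brain, 3.45 in Cerebellum, 136 in Cortex and 166 in OlfactoryBulb, 1.60 in Heart, 1.34 in Kidney and 6.96 in Liver, and 129.6 in the library labelled Testes. Cerebellum was low among brain tissues, and the library labelled Testes lay just below the other 3. Krt77, a keratin of sweat ducts, measured 149 in Brain, 0.383 in Cerebellum, 126 in Cortex and 59.1 in OlfactoryBulb and was 0 in all 4 nonbrain tissues. In the lncRNA design Krt9 did not exceed 2.81 and Krt77 did not exceed 3.91 in any library.

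Of the 6 activation and companion layer keratins, 5 reached 10 and all 5 were highest in the library labelled Testes. Krt17, induced in wounded epidermis and present in follicles (chr11:100256217-100261029), measured 53335 there, 1397 in Heart, 892 in Kidney and 2253 in Liver, and 7.23 in Brain, 0.767 in Cerebellum, 4.83 in Cortex and 2.83 in OlfactoryBulb. Krt6a, a wound and companion layer keratin (chr15:101689910-101694307), measured 2517 there, 48.1 in Heart, 24.7 in Kidney and 95.7 in Liver, and 0.289 in Brain with 0 in the other 3 brain tissues. Both genes followed the order labelled Testes, Liver, Heart, Kidney, brain, 23.7-fold and 26.0-fold above Liver. Krt75 of the companion layer measured 38.4, Krt16, the wound partner of Krt6, 30.9 and Krt42 13.3 in the library labelled Testes, against at most 1.74, 0.668 and 0.870 elsewhere. These 3 reached 10 in that library alone, so that they were highest there follows from the filter, and they rested on 72, 58 and 25 fragments there. Krt16 values are the less certain for the sequence it shares with Gm11597 and Krt14. Krt6b stayed at 2.67 or less.

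Keratins of the hair layers were low or at 0 where the epidermal keratins were high. Of 15 hair shaft keratins 2 reached 10 in the splice junction design. Krt32, a type I keratin of the hair cuticle, measured 67.2 in the library labelled Testes and at most 1.60 in any other, and 175 against 19.1 in Heart in the lncRNA design. Krt87 measured 14.9 there and 4.01 in Kidney, and Krt84 6.40 there with 0 in the other 7 tissues. Krt40 was highest in Brain at 1.74. All 15 shaft genes together held 179 of 443959 keratin fragments in the library labelled Testes.

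Inner root sheath keratins were highest in brain tissues for the 4 of 7 members that reached 10. Krt25, Krt26 and Krt73 reached 10 in brain libraries alone, so that they were highest there follows from the filter. No share of all genes highest in brain tissues was taken. Krt25 (chr11:99315516-99322951), a type I keratin of the sheath, measured 72.9 in Brain, 436 in Cerebellum, 4.83 in Cortex and 8.10 in OlfactoryBulb, and 0.668 in Kidney with 0 in the other nonbrain tissues. Krt28, another type I sheath keratin, measured 23.7 in Brain, 94.3 in Cerebellum, 3.72 in Cortex and 6.07 in OlfactoryBulb, 0 in Heart, 11.4 in Kidney and 5.22 in Liver, and 69.3 in the library labelled Testes. Cerebellum was highest for both genes, and for Krt28 the library labelled Testes lay between Cerebellum and Brain. Krt26 measured 7.23 in Brain, 27.2 in Cerebellum, 4.46 in Cortex and 12.96 in OlfactoryBulb, and 0 in nonbrain tissues. Krt73, a type II sheath keratin, measured 41.1 in Brain, 1.92 in Cerebellum, 30.5 in Cortex and 1.62 in OlfactoryBulb, and also 0 in nonbrain tissues. Krt73 was high in Brain and Cortex and low in Cerebellum, where Krt25, Krt26 and Krt28 peaked. The highest value of any sheath keratin in a lncRNA library was 1.96.

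Simple epithelial keratins were highest in Kidney for 3 members, in Liver for 2 and in the library labelled Testes for 1. The share of all genes highest in Kidney or in Liver was not taken. Krt18 (chr15:102028180-102032027), the type I keratin of hepatocytes and tubules, measured 17891 in Liver, 1635 in the library labelled Testes, 1040.1 in Kidney, 338 in Heart and 112 in Brain, 164 in Cerebellum, 11.5 in Cortex and 7.29 in OlfactoryBulb. Its partner Krt8 (chr15:101996698-102004482) measured 6966 in Liver, 1293 in Kidney, 1172 in the library labelled Testes, 173 in Heart and 18.5 in Brain, 19.9 in Cerebellum, 1.12 in Cortex and 2.02 in OlfactoryBulb. Liver led for both genes, and Kidney and the library labelled Testes changed places. Krt7 (chr15:101411043-101430313), of ducts and urothelium, measured 3749 in Kidney, 1705 in the library labelled Testes, 228 in Liver, 172 in Heart and 4.05 in Brain, 5.37 in Cerebellum, 4.46 in Cortex and 6.07 in OlfactoryBulb. Krt19, the small type I keratin of ducts, measured 312 in Kidney, 141 in Liver, 77.3 in the library labelled Testes, 41.7 in Heart and 15.6 in Brain, 8.82 in Cerebellum, 4.46 in Cortex and 13.8 in OlfactoryBulb. Kidney led for both, 4 nonbrain tissues exceeded 4 brain tissues for each, and the library labelled Testes came next after Kidney for Krt7 and after Kidney and Liver for Krt19.

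Krt23, a type I keratin of epithelia, was the exception. It measured 5030.5 in the library labelled Testes, 99.5 in Heart, 169.8 in Kidney and 449 in Liver, and 17.7 in Brain, 5.75 in Cerebellum, 15.6 in Cortex and 8.50 in OlfactoryBulb. The library labelled Testes was 11.2-fold above Liver. Krt20 of intestinal and urothelial surface cells measured 38.1 in Kidney, 2.67 in the library labelled Testes, 4.81 in Heart, 0.870 in Liver and 6.94 in Brain, 0 in Cerebellum, 23.1 in Cortex and 27.5 in OlfactoryBulb, so brain and nonbrain values overlapped. In the lncRNA design Krt18 measured 8680.1 in Liver, 609.7 in the library labelled Testes and 407 in Kidney, and Krt8 869.8 in Liver. Liver kept its lead there.

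Mucosal keratins were low, and the corneal keratin Krt12 was highest in brain tissues. Krt4 and Krt13, the pair of oral and oesophageal epithelium, measured 12.2 in Liver and 5.86 in the library labelled Testes for Krt4, and 1.60 in the library labelled Testes for Krt13. Krt76 did not exceed 1.60. Krt12 (chr11:99415666-99422259), known from the corneal epithelium, measured 128 in Brain, 1.92 in Cerebellum, 314 in Cortex and 75.7 in OlfactoryBulb, 1.60 in Heart, 0.668 in Kidney and 0 in Liver, and 3.20 in the library labelled Testes. Its lncRNA values were 329 in Brain, 5.25 in Cerebellum, 432 in Cortex and 69.1 in OlfactoryBulb, with 2.28 in the library labelled Testes and 0 in Heart, Kidney and Liver. Cortex was highest and Cerebellum lowest among brain tissues in both designs, and Cerebellum fell near the nonbrain values. Krt24 reached 21.9 in Cerebellum and 1.62 or less elsewhere.

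Among the 3 unclassed members Krt222, a type I keratin-like gene, was the most abundant keratin of each brain tissue per kilobase in the splice junction design, at 279.9 to 540. By lncRNA capture it reached 19.2 per kilobase in Brain, where Krt80 was at 440 and Krt10 at 212. Its splice junction values were 734 in Brain, 822 in Cerebellum, 904 in Cortex and 448 in OlfactoryBulb, 946 in Heart, 18.7 in Kidney and 8.70 in Liver, and 10.7 in the library labelled Testes. Heart lay with the brain tissues and above them, and the other 3 nonbrain tissues lay far below. Krt90 measured 11.6 in Brain, 0 in Cerebellum, 0.372 in Cortex and 10.5 in OlfactoryBulb and was 0 in nonbrain tissues.

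Part of the keratin signal of Heart, Kidney and Liver ran in a similar proportion to the library labelled Testes, which was hybridized in the same pool of 4. Fragments of Krt5, Krt6a, Krt14, Krt15, Krt17 and Krt79 in the splice junction design were 0.635% to 0.871% of those labelled Testes in Heart, 0.784% to 1.62% in Kidney and 2.33% to 2.59% in Liver. Over 35 non-keratin genes abundant in the library labelled Testes and at most 0.1% of that level in the brain libraries, the median percentages were 0.654% in Heart, 1.13% in Kidney and 2.199% in Liver. In the lncRNA design 11 such genes gave 0.226%, 0.377% and 0.753%. The same keratins ran there from 0% to 0.937% in Heart, 0.381% to 1.64% in Kidney and 0.525% to 1.17% in Liver. Krt5 was the highest of them in each. In the splice junction design other keratins lay above the median proportions. Krt7 in Kidney stood at 175% of its fragments labelled Testes, Krt18 in Liver at 670.5%, Krt8 in Liver at 364%, Krt10 in Kidney at 17.9% and Krt80 in Kidney at 4.60%. The source of the shared proportion was not tested.

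Removing the median share left a smaller part of the basal and activation keratins. Over the 35 genes the percentages ran from 0.511% to 3.07% in Heart, 0.839% to 19.6% in Kidney and 1.87% to 37.3% in Liver. Removing the median can therefore leave shared fragments behind. In the splice junction design Krt14 kept 169 of 1182 in Heart, 142 of 872 in Kidney and 306 of 2155 in Liver. Krt5 kept 68.4, 93.5 and 57.2 in the same order, Krt79 98.3, 144 and 271, and Krt6a 0, 0 and 5.39. Little was left by lncRNA capture. Krt14 kept 0 of 23.9 in Heart, 0.286 of 25.3 in Kidney and 0 of 61.8 in Liver, and Krt79 kept 0 of 410.2, 9.87 of 275 and 0 of 564. The removal can lose no call in the libraries labelled Testes, since it lowers other tissues only.

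**Figure D3:**
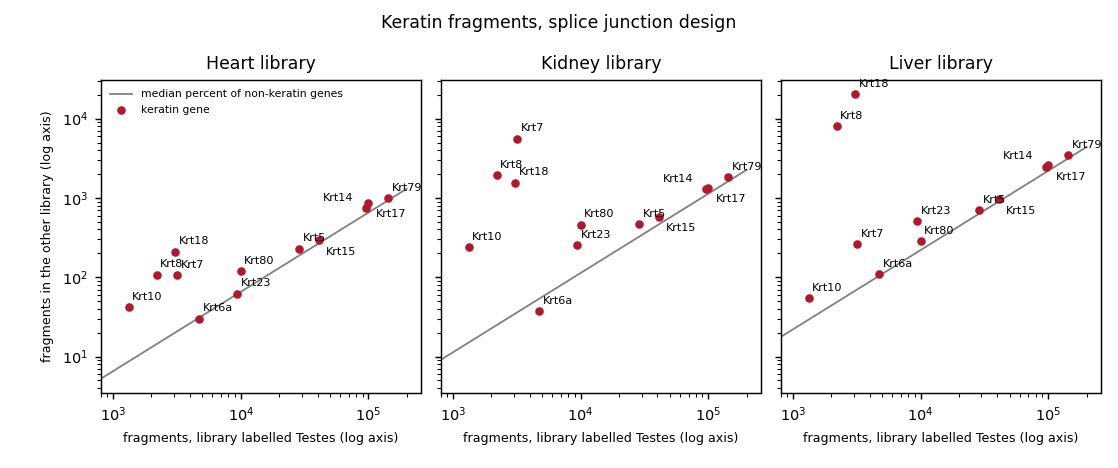
Each point is a keratin gene with at least 400 fragments in the splice junction library labelled Testes (horizontal, log axis), plotted against its fragments in Heart, Kidney or Liver (vertical, log axis), and the line marks the median proportion of 35 non-keratin genes, 0.654%, 1.13% and 2.199%. Krt5, Krt14, Krt15, Krt17 and Krt79 lie near the line in all 3 libraries, and Krt7 in Kidney and Krt8 and Krt18 in Liver lie far above it.

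Proportions between partner keratins differed by pair, tissue and design. Per kilobase in the splice junction design, Krt14 over Krt5 was 5.58 in the library labelled Testes, 5.23 in Heart, 4.72 in Kidney and 6.09 in Liver, the last 3 being the libraries that carry the shared proportion. By lncRNA capture the same ratio was 13.8, 1.94, 3.63 and 7.51 in that order. Again in the splice junction design, Krt18 over Krt8 was 3.31 in Liver, 1.80 in the library labelled Testes and 1.04 in Kidney, so type I exceeded type II by different amounts. Krt10 over Krt1 was 386 in the library labelled Testes, where Krt1 had 4 fragments. Krt17 over Krt6a was 37.9 there. Krt19 over Krt7 was 0.238 in Kidney, 0.139 in the library labelled Testes and 1.84 in Liver. Ratios have no replicate error.

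The study compares brain with nonbrain tissues, and that comparison allowed a test with tissues as units. limma was run on log2(value + 1) averaged over both designs per tissue, for 19355 genes with a mean value of at least 10, 4 brain against 4 nonbrain tissues, with Benjamini-Hochberg adjustment over all genes. Of 20 keratins tested, 10 were higher in nonbrain tissues, beside 11.6% of all genes, and 4 were lower, beside 21.5%. The share lower did not exceed that of all genes. The median keratin difference was 3.39 and that of all genes -0.17. The p-values measure spread between tissues, since no tissue had a second mouse. The brain group holds a whole organ and its own regions. Heart, Kidney and Liver carry a proportion shared with the library labelled Testes. The tissues are thus not independent units. At an unadjusted p under 0.05 there were 16 of 20 keratins, beside 8776 of 19355 genes.

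The keratins higher in nonbrain tissues were epidermal, activation and simple epithelial. Differences of log2 values were 11.21 ± 1.33 (SE, adjusted p = 0.000368) for Krt79, 8.82 ± 1.34 (SE, adjusted p = 0.00151) for Krt14, 7.47 ± 1.11 (SE, adjusted p = 0.0013) for Krt5, 8.18 ± 1.30 (SE, adjusted p = 0.00186) for Krt17, 6.91 ± 1.13 (SE, adjusted p = 0.00219) for Krt8, 5.48 ± 1.47 (SE, adjusted p = 0.0212) for Krt18, 5.31 ± 1.11 (SE, adjusted p = 0.00707) for Krt7 and 3.37 ± 0.46 (SE, adjusted p = 0.000797) for Krt19 by limma. Krt15 and Krt6a were called as well, at 6.41 and 5.55. Lower in nonbrain tissues were Krt12 at -5.39 ± 1.27 (SE, adjusted p = 0.0123), Krt222 at -3.98 ± 1.22 (SE, adjusted p = 0.0358), Krt77 at -2.86 ± 0.84 (SE, adjusted p = 0.0309) and Krt25 at -2.50 ± 0.67 (SE, adjusted p = 0.021). Not called were Krt23 at 3.41 ± 1.19 (SE, adjusted p = 0.0549), Krt80 at 3.23 ± 1.28 (SE, adjusted p = 0.0815) and Krt10 at 0.47 ± 0.85 (SE, adjusted p = 0.697), beside Krt9, Krt28 and Krt32. Krt222 was called in 8 of 19 alternative settings and Krt77 in 10 of 19, and Heart was the high nonbrain tissue for Krt222. Krt18 was not called without Cortex or without OlfactoryBulb, Krt6a without Cortex, and Krt25 without Brain.

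These calls depended in part on the shared proportion. With it removed from Heart, Kidney and Liver, 10 keratins were called by limma, 6 higher beside 9.92% of all genes and 4 lower beside 21.2%, and Krt14 (adjusted p = 0.0641), Krt79 (adjusted p = 0.0593), Krt15 (adjusted p = 0.121) and Krt6a (adjusted p = 0.262) were not. With the tissue labelled Testes also left out, 11 were called: Krt5, Krt7, Krt8, Krt14, Krt17, Krt18, Krt19 and Krt79 higher, beside 10.5% of all genes, and Krt9, Krt12 and Krt25 lower in nonbrain tissues, beside 21.4%. In neither fit did the share of keratins lower exceed that of all genes. Krt5, Krt7, Krt8, Krt17, Krt18, Krt19, Krt12 and Krt25 were called in all 3 fits. Only the median share was removed, so what remains of Krt5, Krt14, Krt17 and Krt79 cannot be told from shared fragments. The differences shrank over the 3 fits for the basal and activation keratins, from 11.21 to 7.08 and 4.16 for Krt79, from 8.82 to 5.92 and 3.42 for Krt14, from 8.18 to 5.95 and 3.72 for Krt17 and from 7.47 to 6.28 and 4.61 for Krt5 on the log2 scale. For Krt8 they went from 6.91 to 6.86 and 6.83.

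**Figure D4:**
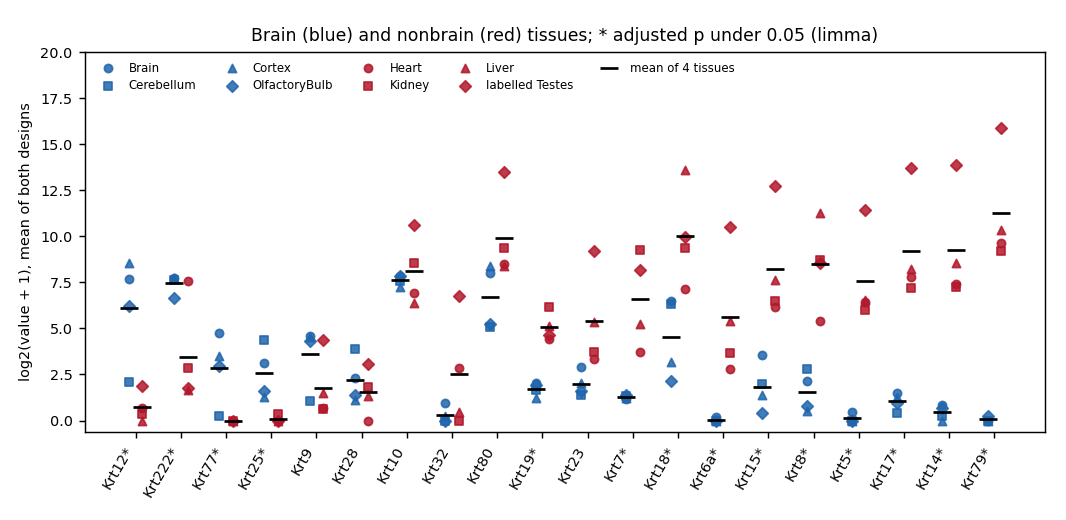
For the 20 keratins tested (horizontal, in order of the difference), each symbol is 1 tissue's log2(value + 1) averaged over both designs (vertical), brain tissues in blue and nonbrain tissues in red, with a bar at the mean of 4 tissues and a star at an adjusted p under 0.05 in limma. For Krt79 and Krt5 every red symbol lies above every blue one, and for Krt12 every blue symbol lies above every red one.

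The capture designs gave keratins, like most genes, different weights. limma with tissue as a factor found 18 of 20 keratins different between designs, beside 17919 of 19355 genes. That share of keratins was near the share of all genes. Higher in the lncRNA design, beside 40.9% of all genes, were Krt10 at 1.86 ± 0.17 (SE, adjusted p = 3.3e-06) and Krt80 at 1.69 ± 0.22 (SE, adjusted p = 3.91e-05) on the log2 scale, lncRNA minus splice junction. Lower, beside 51.7%, were 16, from Krt79 at -0.96 ± 0.35 (SE, adjusted p = 0.0231) to Krt23 at -4.99 ± 0.63 (SE, adjusted p = 3.34e-05). The median difference was -2.77 over the keratins and -1.09 over all genes, so Krt79 lay near the latter. Krt12 at 0.04 ± 0.31 (SE, adjusted p = 0.907) and Krt32 at 0.52 ± 0.40 (SE, adjusted p = 0.239) were not called. Krt80 measured 25011 in the lncRNA design against 5336 in the splice junction design of the library labelled Testes, whereas Krt5 measured 487 against 15282. Krt80 and Krt5 thus moved in opposite directions between designs. With Heart, Kidney or Liver left out Krt79 was not called.

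The design difference itself differed between brain and nonbrain tissues for 9 of 20 keratins, beside 14.8% of all genes called in either direction. On the log2 scale, the nonbrain minus the brain design difference was -4.58 ± 0.39 (SE, adjusted p = 6.74e-05) for Krt5, -3.92 ± 0.56 (SE, adjusted p = 0.00135) for Krt14, -3.62 ± 0.43 (SE, adjusted p = 0.000465) for Krt23 and -3.18 ± 0.54 (SE, adjusted p = 0.00375) for Krt7 by limma, and 4.99 ± 1.21 (SE, adjusted p = 0.0235) for Krt25 and 4.58 ± 1.20 (SE, adjusted p = 0.0327) for Krt77. For Krt5, Krt6a, Krt25, Krt77 and Krt79, 1 tissue group sat at or near 0 in both designs, where no design difference can show, so the value restates that of the other group. The brain design difference was -0.23 for Krt5, -0.12 for Krt79 and -0.09 for Krt6a, and the nonbrain one 0 for Krt77 and -0.18 for Krt25. Krt23, Krt7, Krt17 and Krt14 had brain design differences of -3.18, -2.57, -2.09 and -0.90. By lncRNA capture Krt7, Krt17 and Krt14 were at 0 in the brain tissues, and Krt23 was at 2.57 or less. Their brain differences were thus limited by low splice junction values. With Brain or Liver left out 5 keratins were called, Krt5, Krt7, Krt14, Krt17 and Krt23, and these 5 were called with any 1 tissue left out.

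**Figure D5:**
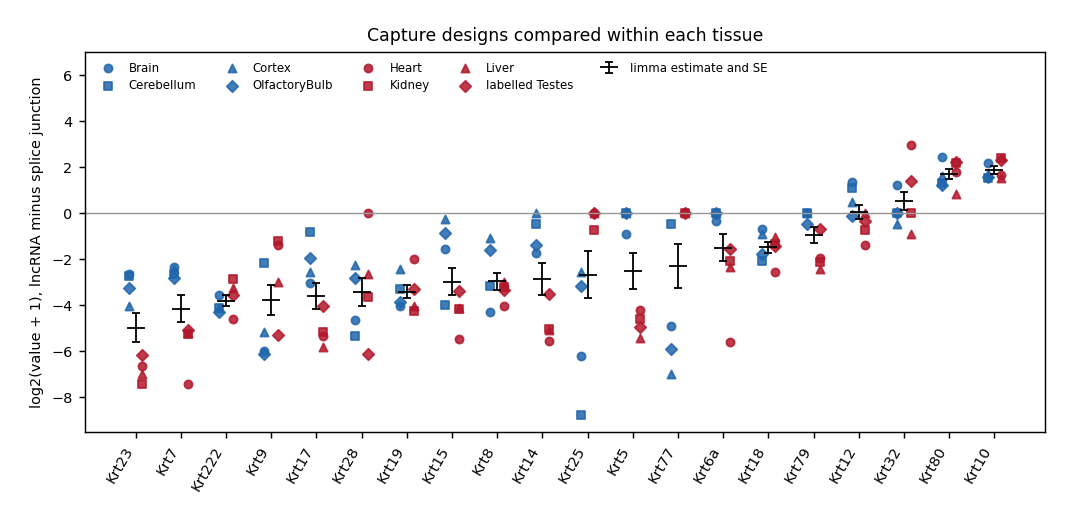
For the 20 keratins tested (horizontal, in order of the estimate), symbols give the log2(value + 1) difference of the lncRNA minus the splice junction design in each of 8 tissues (vertical), brain in blue and nonbrain in red, with the limma estimate and its SE in black. Krt10 and Krt80 lie above 0 in all 8 tissues and Krt23 lies below 0 in all 8.

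Transcript structure was mostly that of the reference. Of 86 keratin transcripts 65 matched GENCODE in every intron, 20 had a different chain of introns and 1 was a single exon, and 545 of 563 introns were in GENCODE. In 33 genes there was 1 transcript and in 20 more than 1, with up to 6 for Krt7 and Krt80. In the lncRNA library labelled Testes 90.6% of the Krt80 value lay on a transcript of 9 exons at chr15:101350050-101370125, and in the splice junction library 47.2% lay on it and 50.8% on one at chr15:101349571-101367553. Of the Krt15 value in the splice junction library labelled Testes, 77.7% lay on a transcript of 9 exons at chr11:100131758-100136356. For Krt10 in the lncRNA design, 86.7% lay on the annotated transcript of 8 exons in the library labelled Testes and 56.9% in Kidney, against 10.0% in Heart, 8.16% in Liver and 1.67% to 21.5% in brain tissues. In the splice junction design it was 96.2% in the library labelled Testes, 71.3% in Kidney, 52.4% in Brain and 35.9% in Cerebellum. Isoform shares are model estimates of the authors' quantification and have no replicate error.

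Genes that anchor or accompany keratins were high in the same libraries. Of 16 keratinocyte genes other than keratins that reached 10 by splice junction capture, 14 peaked in the library labelled Testes and all 14 by 4-fold or more, and the list summed to 115002 there. Undivided by length, values there included the desmosomal cadherins Dsc3 at 52650.2 and Dsg3 at 26177, Perp at 18735 and Krtdap at 6403. Beside these shares stand 16.4% of protein-coding genes highest there and 3.82% at 4-fold or more. Among 20 keratin anchors and regulators 14 were highest there and 7 by 4-fold or more, among them plakophilin Pkp1 at 27579, Grhl1 at 17565 and Trp63, the transcription factor of basal keratinocytes, at 14096. Desmoplakin (Dsp), which ties keratin filaments to desmosomes, was not among the 7, at 120134 there and 114336 in Heart. By lncRNA capture the anchors summed to 13647 in the library labelled Testes and 28139 in Heart. Simple epithelium genes other than keratins also peaked in the library labelled Testes by splice junction capture. Of 13 that reached 10, 11 were highest there and 5 by 4-fold or more. Their list summed to 95827 there and 29513 in Kidney. Against brain tissues limma called 8 of 20 anchors and regulators higher and none lower, 10 of 16 keratinocyte genes higher and 1 lower, and 11 of 13 simple epithelium genes other than keratins higher, beside 11.6% of all genes higher and 21.5% lower. Of 16 other intermediate filament genes limma called 2 higher, Nes and Lmna, and 7 lower in nonbrain tissues, among them Gfap of astrocytes at -8.42 ± 0.45 (SE, adjusted p = 7.56e-06). The shares of filament genes higher, 2 of 16, and of hair follicle genes lower, 1 of 4, were near those of all genes. Hair follicle genes other than keratins were highest in the library labelled Testes for 5 of 9 that reached 10 by splice junction capture. Their list summed to 372 there and 7614 in OlfactoryBulb. By lncRNA capture 0 of 5 that reached 10 were highest there. Of the hair follicle genes limma called 0 higher and 1 lower of 4 tested.

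Over the 8 splice junction libraries the non-keratin genes whose log2(value + 1) was most like that of Krt5 were Klk10, Pnpla5, Slpi, Aadacl3 and Dbt, with Pearson r of 0.998 to 0.999. Those most like Krt8 were Acox2, Alg3, Ngly1, Aldh16a1 and Imp4, with r of 0.982 to 0.989. These are descriptions over 8 libraries, of which the nonbrain ones share a pool.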

How the data were processed

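Capture libraries of 8 tissues and 2 probe designs (16 in all) were sequenced by the authors, aligned to GRCm38, assembled with Cufflinks 2.2.1 guided by GENCODE M4, and quantified per transcript with Cuffnorm 2.2.1. The deposited values are a signal, normalized fragment numbers per transcript, comparable across libraries by the authors' scaling and not divided by length. Transcripts were assigned here to the GENCODE M21 gene with the largest exonic overlap on the same strand (bedtools 2.31.1) and summed per gene. Sums of the authors' gene models, checked at low fragment numbers, were whole multiples of 1 step per library within 0.1. Gene sums were divided by that step and rounded to give fragments. Transcript values are fractional, so counts exist only for sums.

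No test was made between single libraries. A keratin was called in the library labelled Testes at 4-fold or more over the highest other tissue, on the value plus 1, among genes reaching 10. limma 3.58.1 (R 4.3.3) compared brain with nonbrain tissues and capture designs on log2(value + 1), genes with mean 10 or more, adjusted p under 0.05, checked on simulated data. Python 3.11.15, pandas 2.3.3, NumPy 2.4.6, SciPy 1.17.1 and matplotlib 3.10.9 did the rest. Named were the 4 members of each class highest per kilobase in any splice junction library, any called by limma, at most 4 genes of each other list, and the 5 genes most like Krt5 and Krt8; further members named for their role were chosen after their values were seen. The keratins and lists were chosen with earlier results of these data known. Alternatives were another pseudocount, no filter, scaling to equal fragment totals, quantile normalization, each design alone, other transcript assignments and leaving out each tissue. RefSeq promoters not in the table used were not analysed here.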

Additional observations from a re-analysis of the deposited data

Results flagged for a closer look

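Among 4 tissues, 1 value stood so far from the rest that its gap to the nearest, over the whole range, passed the 95% critical value for 4 samples. This held for 8 of 39 groups of keratin values, and chance gives about 1 in 20. In nonbrain tissues the tissue labelled Testes stood apart for Krt5 (0.901) and Krt17 (0.844), both higher there, and Kidney for Krt25 (1), which rests on 1 fragment. In brain tissues OlfactoryBulb was low for Krt222 (0.875) and Cerebellum low for Krt9 (0.929). Brain stood above 3 tissues at 0 for Krt6a (1) and Krt5 (1), and OlfactoryBulb for Krt79 (1), on 1 to 3 fragments each.

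The difference between capture designs was not the same in brain and nonbrain tissues for 9 keratins by limma. On the log2 scale, nonbrain minus brain, it was -4.58 for Krt5, -3.92 for Krt14, -3.62 for Krt23, -3.18 for Krt7, -3.01 for Krt17, -2.82 for Krt6a and -1.68 for Krt79, and 4.99 for Krt25 and 4.58 for Krt77. All 7 negative genes are epithelial keratins with low values in brain tissues, and both positive ones have values near 0 in nonbrain tissues. A gene at 0 in a tissue group can show no design difference there.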

How the results depend on the processing

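No paired analysis was possible because the descriptions number every sample as replicate 1, other than tissue as a factor between designs. Brain against nonbrain, 14 keratins called became 7 (6 higher, 1 lower) in the lncRNA design alone, 10 to 14 with each tissue left out, 12 with scaling to equal fragment totals and 15 with quantile normalization. Over all genes these scalings turned 2248 higher and 4160 lower into 1206 and 5245, and 3480 and 3531, and the all-gene median from -0.17 into -0.38 and 0.17. The design comparison gave 8 calls without tissue as a factor, beside 14914 of 19355 genes, and 16 to 18 with each tissue left out. With no filter it gave 24 of 48, beside 20574 of 27454 genes. The difference between designs by tissue group gave 5 to 8 calls with each tissue left out, against 9, and with Brain or Liver left out it gave 5. The library labelled Testes gave 9 (equal fragment totals) to 18 keratins (above the median tissue) in the splice junction design, against 13, and 8 to 11 in the lncRNA design, against 10. Among keratins named with a value, directions turned for Krt12 and Krt10. Krt12 between designs, 0.04, was -0.55 with a pseudocount of 0.1, -0.27 with equal fragment totals and -0.15 to 0.24 with each tissue left out (-0.15, -0.11 and -0.02 without Brain, Cerebellum and Cortex), and Krt10 between tissue groups, 0.47, was -0.37 to 1.05 with each tissue left out, -0.37 without the tissue labelled Testes, and -0.80 with the shared proportion also removed. Neither was called. With a tissue left out, the uncalled difference between designs by tissue group also changed sign for Krt18, Krt19, Krt28, Krt32 and Krt80. The cause was not tested. The removal of the shared proportion and the leave-outs of the difference between designs were chosen after seeing the data. Depth limits genes under 10, where 1 fragment is worth up to 4.77.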
